A study of Mus musculus with 24 samples.

Results

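The genes described here encode the enzymes that build sterols and fatty acids, together with the proteins that control them. The set holds 33 genes, 19 in the sterol branch and 14 in the fatty acid branch, out of 24970 gene symbols listed in the series. Members were taken by exact match of the gene symbol, and all 33 were listed in each of the 4 expression tables.

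Messenger RNA was measured by poly(A) RNA-seq in 24 mouse libraries, to ask what the microRNAs let-7a, let-7d and let-7f restrain in alveolar type 2 (AT2) cells, the cells that make lung surfactant. Knockout mice are labelled let7afd-/-;Sftpc-CreER/+; R26-tdT/+, and control mice are labelled Sftpc-CreER/+; R26-tdT/+, so that both genotypes carried the inducible Cre and the tdTomato reporter allele. All mice received tamoxifen. There were 4 kinds of sample. Flow-sorted AT2 cells were taken after 6 days of tamoxifen (3 knockout and 3 control libraries, each a pool of 3 mice). Whole lungs were taken after 6 days (3 knockout and 3 control mice). Other whole lungs were taken after 6 months of booster tamoxifen (4 knockout and 4 control mice). AT2 organoids were grown for 14 days from mice given tamoxifen for 6 days (2 knockout and 2 control libraries). The Sftpc promoter drives the Cre, so the deletion was aimed at AT2 cells, and a whole lung mixes cells in which let-7 was and was not deleted. No label used here states an age for the mice. The deletion itself could not be checked, because mature microRNAs carry no poly(A) tail and escape this kind of library.

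Cholesterol is made from acetyl-CoA through the mevalonate pathway, which ends in farnesyl diphosphate and squalene, followed by ring closure to lanosterol and a series of steps that trim lanosterol to cholesterol. The transcription factor SREBP2, encoded by Srebf2, switches on most of these enzymes when membrane sterol runs low, and SREBP1, encoded by Srebf1, does the same mainly for fatty acid synthesis. Insig1 protein holds both factors in the endoplasmic reticulum when sterol is plentiful. AT2 cells are known for a high rate of fatty acid synthesis, since surfactant is mostly phosphatidylcholine with saturated chains, and they also secrete cholesterol with it.

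The deleted microRNAs share 1 seed, the stretch that pairs with target transcripts, and they are shown because they define the knockout. The sequences are from RefSeq (GRCm38.p6), written 5′ to 3′, with the seed (bases 2 to 8) in capitals. They lie on the minus strand of chromosome 13, at chr13:48538239-48538260 for let-7a, chr13:48537889-48537910 for let-7f and chr13:48536078-48536099 for let-7d.
let-7a: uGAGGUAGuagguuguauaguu
let-7f: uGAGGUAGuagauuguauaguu
let-7d: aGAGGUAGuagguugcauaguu

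A search of the longest annotated 3′ UTR of each member (GENCODE M21, GRCm38) for the letters that pair with this seed, CTACCTC, found 1 match in each of Srebf2, Scd1 and Scd2. These sites are shown because they are the only seed matches among the 33 members, with the matching letters in capitals after the 15 bases that precede them. Their positions are chr15:82204820-82204841 on the plus strand for Srebf2, chr19:44396356-44396377 on the minus strand for Scd1 and chr19:44306473-44306494 on the plus strand for Scd2.
Srebf2: cccccaccctcactcCTACCTC
Scd1: gcttccagatcctccCTACCTC
Scd2: gataatattcctgacCTACCTC

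Counting also the overlapping match TACCTCA, a match of 7 letters was present in 3 of 33 members, or 9.09%, against 15.1% of 20659 genes with an annotated 3′ UTR. The longer match, CTACCTC followed by A, was present in 0 members, against 3.11% of genes. The median 3′ UTR of the members was 1600 bases long, against 989 bases over all genes. These are counts of letters and do not show that a site is used.

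Promoters are shown for Mvd, Cyp51, Msmo1, Dhcr7 and Fasn, which had some of the largest differences in the lungs, and for Hmgcs1, which holds the letters of a sterol regulatory element. RefSeq promoter sequence (GRCm38.p6) was matched by symbol for 26 of the 33 members, 15 of the sterol branch and 11 of the fatty acid branch. Fdps, Fdft1, Sqle, Stard4, Scd1, Scd2 and Fads1 were not matched. Each line below gives the 250 bases before the transcript start on the gene's own strand. Capitals mark CCAAT on either strand (ATTGG on the other strand), the box bound by the factor NF-Y, and in Hmgcs1 also TCACCCCAC, a match to the sterol regulatory element letters TCACNCCAC. The windows are chr13:119690101-119690350, plus strand for Hmgcs1, chr8:122443423-122443672, minus strand for Mvd, chr5:4104698-4104947, minus strand for Cyp51, chr8:64733579-64733828, minus strand for Msmo1, chr7:143829964-143830213, plus strand for the third of the starts listed for Dhcr7, and chr11:120824548-120824797, minus strand for Fasn. The CCAAT and ATTGG matches of Fasn overlap in 1 place. The first and second windows listed for Dhcr7 hold 0 CCAAT matches, against 2 in the third, which is shown.
Hmgcs1: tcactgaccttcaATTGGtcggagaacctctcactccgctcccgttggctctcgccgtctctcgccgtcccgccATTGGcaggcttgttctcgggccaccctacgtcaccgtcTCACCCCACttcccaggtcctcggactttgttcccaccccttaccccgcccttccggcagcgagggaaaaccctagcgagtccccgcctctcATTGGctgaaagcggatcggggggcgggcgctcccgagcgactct
Mvd: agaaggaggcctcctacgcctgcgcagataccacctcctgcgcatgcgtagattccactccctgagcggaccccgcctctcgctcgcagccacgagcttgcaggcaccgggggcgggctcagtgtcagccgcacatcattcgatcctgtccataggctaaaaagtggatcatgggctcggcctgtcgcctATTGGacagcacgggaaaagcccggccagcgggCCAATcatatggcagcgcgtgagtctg
Cyp51: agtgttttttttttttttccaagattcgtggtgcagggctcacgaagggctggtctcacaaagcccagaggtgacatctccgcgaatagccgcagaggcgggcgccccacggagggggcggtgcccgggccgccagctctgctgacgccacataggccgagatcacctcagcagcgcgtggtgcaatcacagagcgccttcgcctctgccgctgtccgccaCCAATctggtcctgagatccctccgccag
Msmo1: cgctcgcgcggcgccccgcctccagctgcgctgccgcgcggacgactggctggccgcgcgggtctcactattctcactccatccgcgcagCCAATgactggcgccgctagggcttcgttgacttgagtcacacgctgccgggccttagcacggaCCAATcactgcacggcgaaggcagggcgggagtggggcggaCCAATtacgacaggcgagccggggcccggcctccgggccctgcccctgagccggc
Dhcr7: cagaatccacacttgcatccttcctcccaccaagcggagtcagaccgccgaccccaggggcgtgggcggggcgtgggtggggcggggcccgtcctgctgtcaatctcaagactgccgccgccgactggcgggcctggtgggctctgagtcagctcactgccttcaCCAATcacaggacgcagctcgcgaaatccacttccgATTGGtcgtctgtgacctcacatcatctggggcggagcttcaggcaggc
Fasn: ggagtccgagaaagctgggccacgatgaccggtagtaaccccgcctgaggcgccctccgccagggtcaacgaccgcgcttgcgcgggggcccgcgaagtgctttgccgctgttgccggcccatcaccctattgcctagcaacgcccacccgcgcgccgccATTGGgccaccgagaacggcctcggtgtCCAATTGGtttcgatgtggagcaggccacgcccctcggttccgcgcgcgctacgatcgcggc

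CCAAT on either strand was found in 15 of 15 sterol genes and in 6 of 11 fatty acid genes (54.5%), against 37.5% of 27025 genes with a promoter sequence. The GC box GGGCGG on either strand was found in 14 of 15 sterol genes (93.3%) and 7 of 11 fatty acid genes (63.6%), against 35.4% of all genes. The sterol regulatory element letters were found in Hmgcs1 alone among the matched members, against 1.22% of all genes, with the first letter 137 bases before the start. The E-box CACGTG was present in 4 of 15 sterol genes (26.7%) and 1 of 11 fatty acid genes (9.09%), against 6.86% of all genes. These shares count a gene once over all its listed starts, describe letters only, and say nothing of which factor was bound. Counted by window, CCAAT was in 15 of 18 sterol windows (83.3%), 7 of 15 fatty acid windows (46.7%) and 33.8% of all windows.

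Values are transcripts per 1000000 (TPM), deposited by the authors in 1 table for each kind of sample, and the sequencing depth behind them is unknown. Fold changes are knockout over control on the log2(TPM + 1) scale, tested with limma and adjusted by Benjamini-Hochberg over all genes tested in a table, and a gene passed at an adjusted p under 0.05. A fold change on this scale is called an effect below, with its standard error (SE), and at low TPM it comes out smaller than the ratio of the TPM values. Replicate p-values measure the spread among these mice, pools or organoid cultures. Some libraries stood apart from the rest of their group. Red cell transcripts made up 8.48% of TPM in replicate 3 of the knockout lungs at 6 days. The other 5 lungs of that time point had 0.879% to 4.54%. Ribosomal protein transcripts made up 14.0% of TPM in replicate 1 of the knockout AT2 cells. They made up 7.83% to 9.13% in the other 5 AT2 libraries. In replicate 1 of the control AT2 cells, club cell markers summed to 13789 TPM. Their sum was 2340 to 5159 TPM in the other 5 AT2 libraries. The 2 control organoid libraries also differed from each other, with summed AT2 cell marker levels of 17784 and 53992 TPM, against 82623 and 89935 TPM in knockout organoids. The 11 AT2 cell markers summed to 167480 to 242890 TPM in knockout AT2 cells and 253990 to 270590 TPM in control AT2 cells, and 0 of 11 passed. The libraries do not keep the strand, and exons of Cyp51, Fdft1, Acss2, Elovl1 and Srebf1 overlap a protein-coding gene on the other strand (Akap9, Ctsb, Ggt7 and Gss, Cdc20, and Rai1 in that order), so reads of those pairs cannot be told apart. Fdps overlaps the predicted gene Gm43738 on its own strand, and Scd1 and Scd2 are close paralogs whose reads the counting could split.

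**Figure D1:**
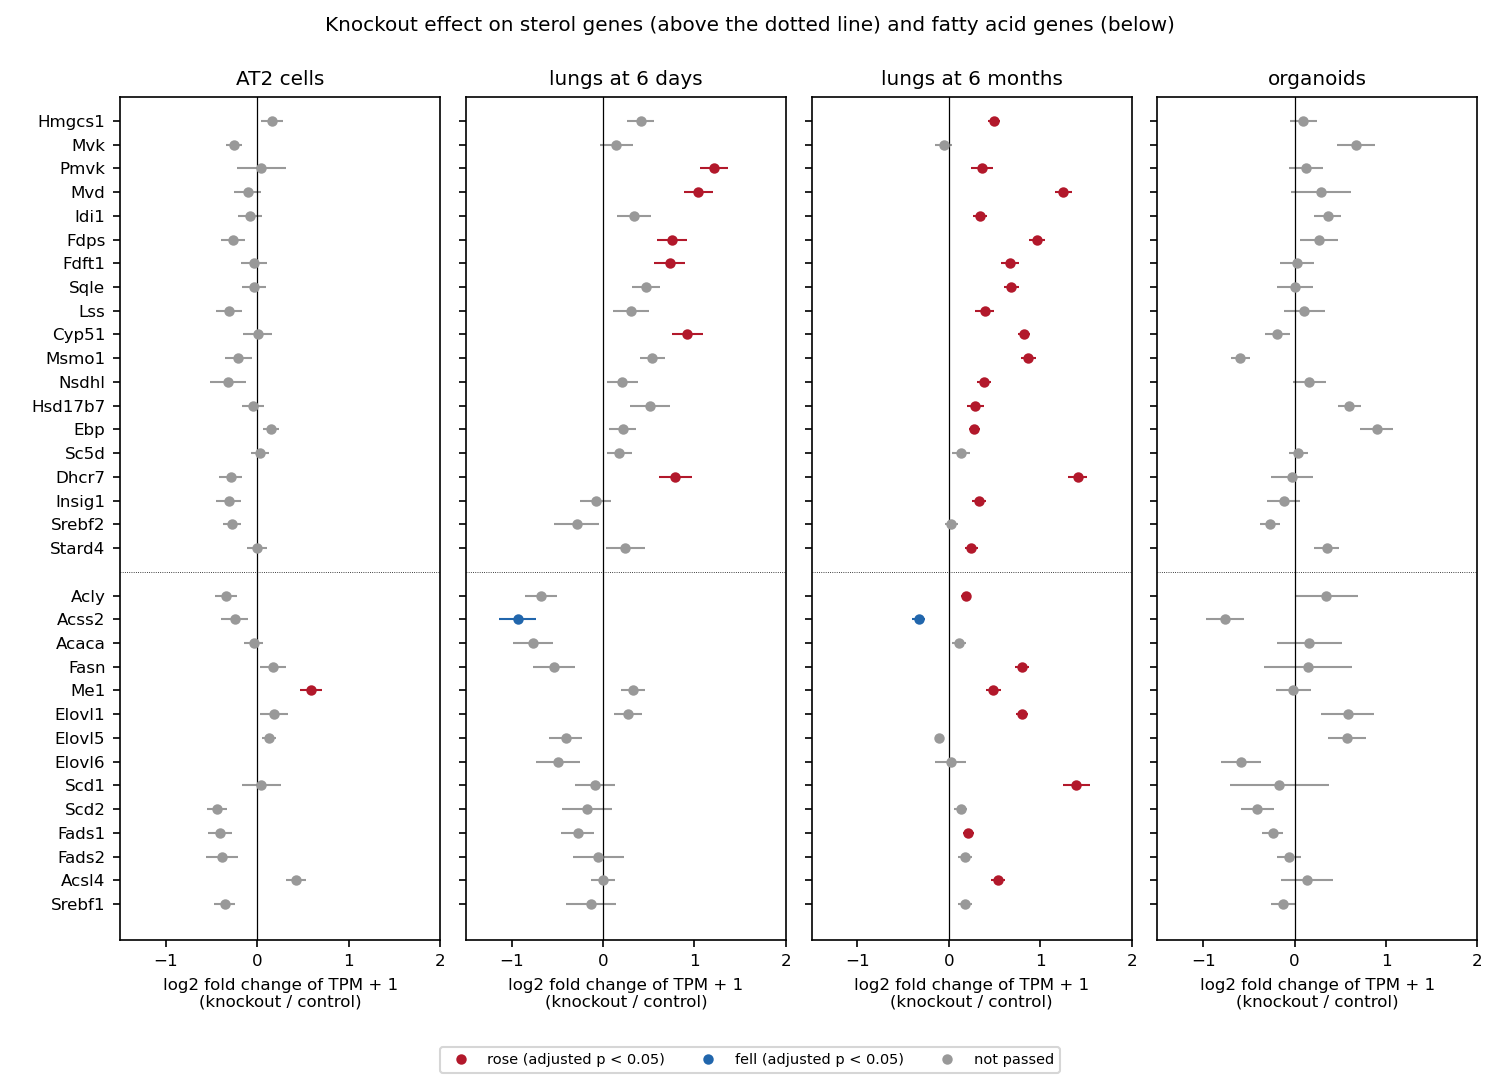
Log2 fold change of TPM + 1, knockout over control, for each of the 33 genes (points) with its standard error (lines) in the 4 kinds of sample; red points rose, blue points fell and grey points did not pass. Elovl6 has no AT2 point, since it was below 1 TPM in all 6 AT2 libraries and was not tested there. The sterol genes lie mostly right of zero in both lung panels, and the fatty acid genes lie mostly left of zero at 6 days and right of zero at 6 months.

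In sorted AT2 cells after 6 days of tamoxifen, no sterol gene passed the limma test, and 1 fatty acid gene, Me1, rose. Of the 19 sterol genes 0 rose and 0 fell, and of the 13 fatty acid genes tested 1 rose and 0 fell. Of all 12109 genes tested, 6.62% rose and 1.22% fell, so the single fatty acid call lies near the share of all genes that rose. At an unadjusted p under 0.05, 0 sterol genes were higher and 2 were lower, against 20.5% and 6.75% of all genes. The median sterol effect was -0.0805, against 0.0801 over all genes tested, and 5 of 19 values were positive against 63.5% of all genes. The median sterol effect was positive without knockout 1 (0.00982) or without control 3 (0.0356), and it stayed below the median of all genes in those fits and under both other scalings.

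The AT2 libraries showed little separation for the mevalonate enzymes. Hmgcs1, the HMG-CoA synthase at the entry to the pathway, had 255, 266 and 274 TPM in knockout AT2 cells, against 200.3, 241 and 277 TPM in control AT2 cells, and its log2 fold change was 0.16 (SE 0.12, adjusted p = 0.43). Fdps, the farnesyl diphosphate synthase, had 318, 389 and 361 TPM in knockout AT2 cells, against 423, 371 and 495 TPM in control AT2 cells, with a log2 fold change of -0.27 (SE 0.13, adjusted p = 0.222). The genotypes overlapped for both genes. Mvk, the mevalonate kinase, had 37.9, 42.2 and 37.7 TPM in knockout AT2 cells, against 45.3, 45.02 and 50.8 TPM in control AT2 cells. All knockout values of Mvk lay below all control values, a pattern seen in 2 of 19 sterol genes and in 8.31% of all genes, and the adjusted p was 0.104.

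Among the regulators, Srebf2 was the other sterol gene whose genotypes did not overlap. It had 119, 142 and 116 TPM in knockout AT2 cells, against 142, 163 and 151 TPM in control AT2 cells, and the difference did not pass (effect -0.28, SE 0.10, adjusted p = 0.124). Insig1 had 210.5, 269 and 224 TPM in knockout AT2 cells, against 244, 304 and 327 TPM in control AT2 cells, with overlapping genotypes and an effect of -0.31 (SE 0.14, adjusted p = 0.184). Dhcr7, the enzyme of the last step to cholesterol in one arm of the pathway, had 18.1, 25.6 and 20.2 TPM in knockout AT2 cells, against 25.2, 25.1 and 27.8 TPM in control AT2 cells, with an effect of -0.29 (SE 0.13, adjusted p = 0.187). Replicate 1 of the knockout AT2 cells was the lowest of the 3 knockouts for Dhcr7, Insig1, Fdps and Hmgcs1. Pmvk, the phosphomevalonate kinase, spread widely, with 149, 177 and 309 TPM in knockout AT2 cells, against 149, 215 and 229 TPM in control AT2 cells, and its effect was 0.047 (SE 0.27, adjusted p = 0.931). The remaining sterol genes had effects of -0.32 for Nsdhl to 0.15 for Ebp, with overlapping genotypes.

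Me1, the cytosolic malic enzyme that supplies NADPH for fatty acid synthesis, was the member that passed in AT2 cells. It had 378, 327 and 405 TPM in knockout AT2 cells, against 241, 219.7 and 277 TPM in control AT2 cells, so that every knockout pool lay above every control pool. Its log2 fold change was 0.59 (SE 0.12, adjusted p = 0.0295). The call was lost without knockout 1 (adjusted p = 0.0556), knockout 3 (0.0965), control 1 (0.082) or control 2 (0.12), without the filter on low values (0.0605) and with median-ratio scaling (0.0567), while the value stayed between 0.50 and 0.59 in these fits. Markers of alveolar macrophages moved with genotype in the same libraries, where 5 of 9 tested rose and their sum was 168 to 290 TPM in knockout AT2 cells and 41.6 to 75.1 TPM in control AT2 cells. Of 9 cell division genes 9 rose, with a sum of 839 to 978 TPM in knockout AT2 cells and 532 to 566 TPM in control AT2 cells. The part of either list in the Me1 value was not tested.

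The other fatty acid genes of AT2 cells did not pass. Acsl4, which activates long polyunsaturated fatty acids such as arachidonate, had 635, 660.2 and 772 TPM in knockout AT2 cells, against 491, 500.2 and 544 TPM in control AT2 cells, with an effect of 0.42 (SE 0.11, adjusted p = 0.0514). Scd2, a desaturase that makes monounsaturated fatty acids, had 405, 515 and 469 TPM in knockout AT2 cells, against 597, 651 and 623 TPM in control AT2 cells, with an effect of -0.44 (SE 0.11, adjusted p = 0.0522). Neither pair of groups overlapped, and both genes sat just outside the threshold. With a filter at 5 TPM both passed, Acsl4 at an adjusted p of 0.0485 and Scd2 at 0.0494. Of the 13 fatty acid genes tested, 3 had all knockouts above all controls and 3 had all knockouts below, against 25.4% and 8.31% of all genes.

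Acly and Fads1 were also lower in every knockout pool without passing. Acly, the citrate lyase that supplies cytosolic acetyl-CoA, had 380.4, 493 and 409.5 TPM in knockout AT2 cells, against 544, 573 and 500.2 TPM in control AT2 cells, with an effect of -0.34 (SE 0.12, adjusted p = 0.114). Fads1, the delta-5 desaturase of polyunsaturated fatty acids, had 128, 186 and 150.03 TPM in knockout AT2 cells, against 213, 202 and 194 TPM in control AT2 cells, with an effect of -0.40 (SE 0.13, adjusted p = 0.0988). Srebf1 had 115, 144 and 126 TPM in knockout AT2 cells, against 170.4, 179 and 144 TPM in control AT2 cells, with 1 knockout pool above the lowest control, and an effect of -0.35 (SE 0.12, adjusted p = 0.1). Fasn, the fatty acid synthase, overlapped between genotypes with 792, 1017 and 1131 TPM in knockout AT2 cells, against 826, 916 and 841 TPM in control AT2 cells, and so did Scd1, the most abundant member, with 6294, 6776 and 8846 TPM in knockout AT2 cells, against 7278, 6949 and 6772 TPM in control AT2 cells. Without knockout 2, the genes Scd2, Fads1, Acly and, in the sterol branch, Dhcr7 fell (adjusted p of 0.026 to 0.0469). Over all genes, the count that fell also moved, from 6 to 285 in the fits without 1 AT2 library, against 148 in the main fit. Elovl6, the elongase that makes stearate from palmitate, was below 1 TPM in all 6 AT2 libraries and was not tested.

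In whole lungs after 6 days of tamoxifen, 6 of 19 sterol genes rose and 0 fell, and 0 of 14 fatty acid genes rose and 1 fell. Of all 14154 genes tested, 3.16% rose and 3.79% fell. Values were positive for 17 sterol and 2 fatty acid genes, against 35.8% of all genes. The median effect was 0.411 for the sterol branch and -0.226 for the fatty acid branch, against -0.139 over all genes. With median-ratio scaling the median of all genes was -0.0116 and those of the branches were 0.554 and -0.0838, so each kept its sign. All knockouts lay above all controls for 11 of 19 sterol genes and for 12.5% of all genes. At an unadjusted p under 0.05, 10 sterol genes were higher and 0 lower, against 9.85% and 15.3% of all genes. In whole lungs, fewer cells of a type and less RNA per cell cannot be told apart.

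Pmvk and Mvd, which catalyse consecutive steps of the mevalonate pathway, had the largest effects. Pmvk had 105, 112 and 112 TPM in knockout lungs, against 40.9, 44.4 and 55.9 TPM in control lungs. A wide gap separated the genotypes, and the log2 fold change was 1.22 (SE 0.16, adjusted p = 0.00674). Mvd, which forms isopentenyl diphosphate from the product of Pmvk, had 35.96, 37.01 and 33.1 TPM in knockout lungs, against 14.9, 19.4 and 15.9 TPM in control lungs, again with a wide gap, and an effect of 1.04 (SE 0.16, adjusted p = 0.012). Idi1, the isomerase that follows, overlapped between genotypes with 71.03, 92.6 and 103 TPM in knockout lungs, against 59.03, 79.1 and 70.3 TPM in control lungs and did not pass (effect 0.34, SE 0.18, adjusted p = 0.281).

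Fdps and Fdft1, which lead from the isoprenoid units to squalene, also rose. Fdps had 147, 165 and 146 TPM in knockout lungs, against 74.04, 107 and 91.2 TPM in control lungs, and its effect was 0.76 (SE 0.16, adjusted p = 0.0333). Fdft1, the squalene synthase, had 36.8, 46.3 and 33.5 TPM in knockout lungs, against 21.6, 23.8 and 23.3 TPM in control lungs, and its effect was 0.73 (SE 0.17, adjusted p = 0.0404). The genotypes did not overlap for either gene. Sqle, the epoxidase that acts on squalene, had 41.6, 51.1 and 44.1 TPM in knockout lungs, against 29.96, 33.002 and 34.7 TPM in control lungs, with no overlap, and did not pass (effect 0.47, SE 0.15, adjusted p = 0.102). Hmgcs1 had 92.9, 109 and 91.5 TPM in knockout lungs, against 65.9, 78.4 and 75.8 TPM in control lungs, with an effect of 0.41 (SE 0.14, adjusted p = 0.127).

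From lanosterol on, Cyp51 and Dhcr7 rose. Cyp51, the lanosterol demethylase, had 38.6, 46.96 and 47.5 TPM in knockout lungs, against 19.8, 24.1 and 24.9 TPM in control lungs, with an effect of 0.92 (SE 0.17, adjusted p = 0.0182). Dhcr7 had 28.1, 22.7 and 24.8 TPM in knockout lungs, against 11.5, 15.9 and 15.2 TPM in control lungs, with an effect of 0.79 (SE 0.18, adjusted p = 0.0401). Both genes had all knockout lungs above all control lungs. Msmo1, the methyl sterol oxidase that follows Cyp51, had 69.6, 76.4 and 80.5 TPM in knockout lungs, against 47.4, 52.4 and 55.1 TPM in control lungs, with no overlap, and missed the threshold (effect 0.54, SE 0.14, adjusted p = 0.0568). Counted by step, 4 of 8 genes up to squalene epoxide and 2 of 8 from lanosterol on rose.

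Neither the regulators nor the sterol carrier passed at 6 days. Srebf2 had 77.1, 68.04 and 39.6 TPM in knockout lungs, against 64.6, 74.8 and 78.9 TPM in control lungs, in which the low value is replicate 3, the lung with most red cell transcripts, and its effect was -0.29 (SE 0.25, adjusted p = 0.478). Insig1, itself a transcriptional target of the SREBP factors, overlapped with 51.7, 66.7 and 48.01 TPM in knockout lungs, against 55.8, 53.9 and 64.9 TPM in control lungs, with an effect of -0.078 (SE 0.17, adjusted p = 0.794). Stard4, a cytosolic carrier of cholesterol, had 39.1, 33.9 and 22.97 TPM in knockout lungs, against 25.6, 28.96 and 24.3 TPM in control lungs, with an effect of 0.25 (SE 0.21, adjusted p = 0.485). The remaining sterol genes, Mvk, Lss, Nsdhl, Hsd17b7, Ebp and Sc5d, had effects of 0.14 for Mvk to 0.51 for Hsd17b7 and did not pass.

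The count of 6 changed with single lungs, as did the count over all genes. It was 0 without control 1, 1 without control 3, 1 without knockout 2, 3 without control 2 and 5 without knockout 1, and it was 10 without knockout 3, where Hmgcs1, Sqle, Msmo1 and Stard4 joined. The 447 genes in all that rose became 41, 68, 180, 347, 466 and 1032 in the same fits and order. The effect of the 6 genes stayed positive in each of these fits. Pmvk missed the threshold only without control 1 (adjusted p = 0.0548). Dhcr7 also missed it with no filter on low values (0.0542). With the replicate number as a block the count was 4, since Fdft1 (0.0745) and Dhcr7 (0.0834) missed it.

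**Figure D2:**
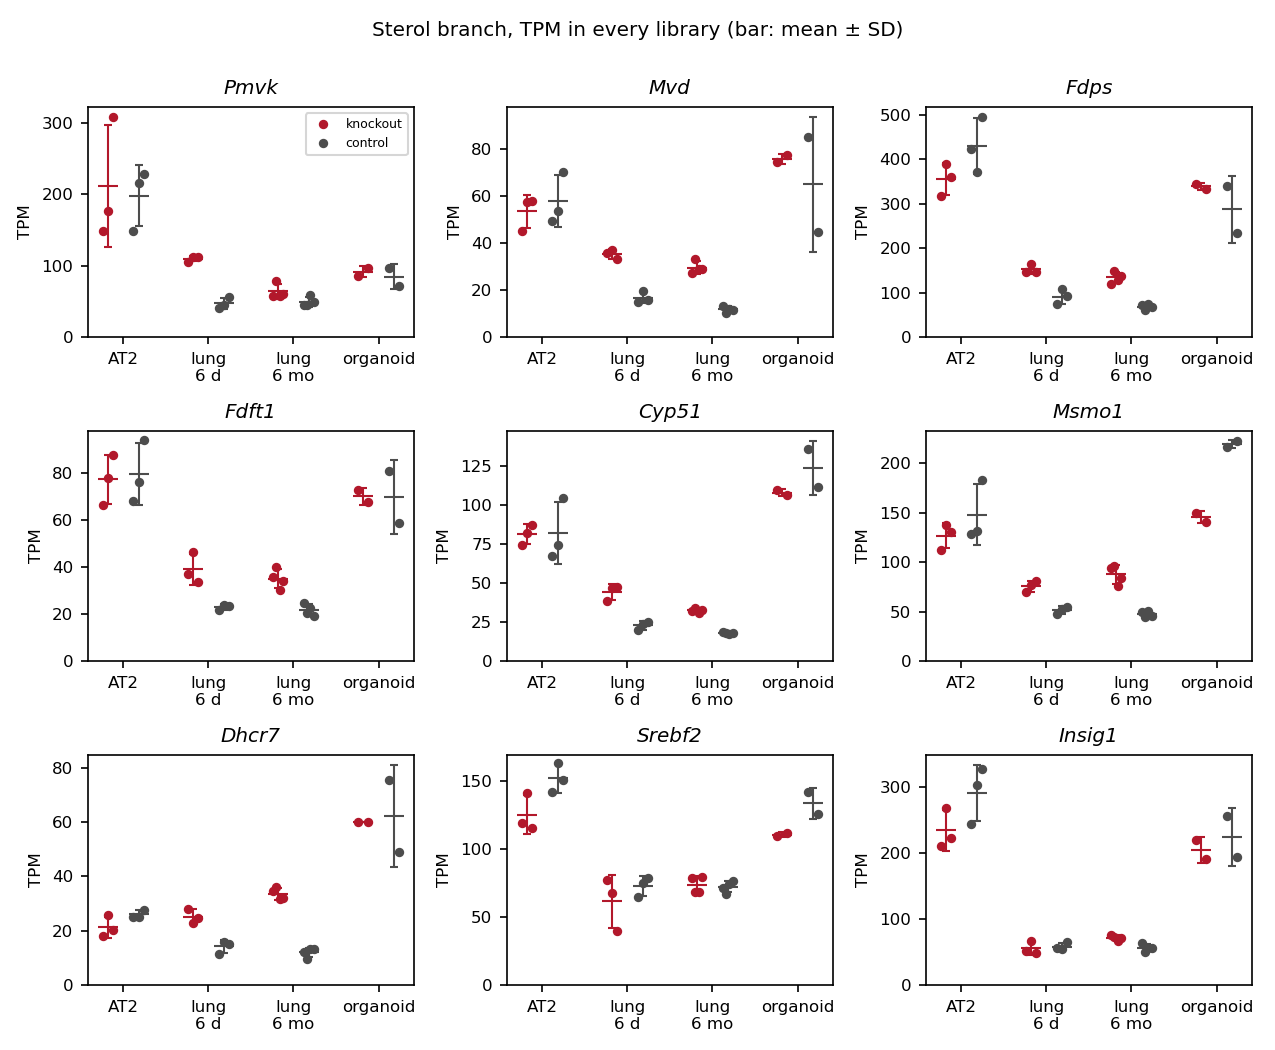
TPM of 9 sterol genes in every library, knockout (red) left of control (grey) in each kind of sample, with bars at the mean ± SD. Mvd, Fdps, Cyp51 and Dhcr7 have all knockout lungs above all control lungs at both time points. In contrast, Srebf2 overlaps in the lungs and most of the genes overlap in AT2 cells.

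Acss2, which makes acetyl-CoA from acetate, was the fatty acid gene that fell at 6 days. It had 15.2, 17.3 and 11.5 TPM in knockout lungs, against 29.1, 24.7 and 32.4 TPM in control lungs, with an effect of -0.93 (SE 0.20, adjusted p = 0.0314). The call was lost without knockout 2 (adjusted p = 0.0584), control 1 (0.161), control 2 (0.0606) or control 3 (0.173). Acly had 91.5, 103 and 74.7 TPM in knockout lungs, against 136, 128 and 168 TPM in control lungs, with an effect of -0.68 (SE 0.17, adjusted p = 0.0556). Acaca, the carboxylase that commits acetyl-CoA to fatty acid synthesis, had 18.6, 17.999 and 12.7 TPM in knockout lungs, against 27.9, 22.9 and 35.4 TPM in control lungs, with an effect of -0.77 (SE 0.22, adjusted p = 0.0751). In these 3 genes and in Elovl5 every knockout lay below every control, which held for 4 of 14 fatty acid genes and for 23.7% of all genes.

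With quantile normalization 4 fatty acid genes passed as lower, namely Acss2, Acly, Acaca and Elovl5, and with median-ratio scaling 2, Acss2 and Acaca. Of all 14154 genes tested, 973 fell with quantile normalization and 883 with median-ratio scaling, against 536 in the main fit. Acly also passed as lower without knockout 3 (adjusted p = 0.039). Fasn had 98.96, 138 and 80.2 TPM in knockout lungs, against 143, 126 and 185 TPM in control lungs, with overlap, and an effect of -0.53 (SE 0.23, adjusted p = 0.19). Scd1 overlapped widely, with 1756, 1816 and 1239 TPM in knockout lungs, against 1617, 1333 and 2205 TPM in control lungs, with an effect of -0.088 (SE 0.22, adjusted p = 0.82). Me1 and Elovl1, the elongase of very long chains, did not pass (effects of 0.33 for Me1 and 0.27 for Elovl1). Both had all knockouts above all controls, which held for 2 of 14 fatty acid genes and for 12.5% of all genes.

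Cell type markers moved with genotype in the same lungs. The summed level of 11 AT2 cell markers was 31473 to 40481 TPM in knockout lungs and 49435 to 56689 TPM in control lungs, where 1 rose, 2 fell, Sftpc among them, and 8 did not pass. The 10 alveolar macrophage markers summed to 3890 to 13231 TPM in knockout lungs and 1677 to 1826 TPM in control lungs, with 3 that rose and 1 that fell. The 11 fat cell markers summed to 46.5 to 67.1 TPM in knockout lungs and 197 to 490 TPM in control lungs, and 8 of 9 tested fell. Heart muscle markers fell in 5 of 5 and club cell markers in 3 of 5, with sums of 117 to 222 TPM for the first list in knockout lungs and 805 to 1185 TPM in control lungs. The club cell sum was 70012 to 86711 TPM in knockout lungs and 151120 to 174650 TPM in control lungs. None of these 5 lists has a marker listed at 0 in every lung. The part of these cells in the sterol and fatty acid values was not tested.

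In whole lungs after 6 months of booster tamoxifen, 16 of 19 sterol genes and 7 of 14 fatty acid genes rose, 0 sterol genes and 1 fatty acid gene fell. Of all 14177 genes tested, 15.9% rose and 13.9% fell. Values were positive for 18 sterol and 12 fatty acid genes, against 49.1% of all genes. The median effect was 0.39 for the sterol branch and 0.185 for the fatty acid branch, against -0.00481 over all genes, and both medians were positive under each scaling. At an unadjusted p under 0.05, 16 sterol genes were higher and 0 lower, against 20.7% and 18.7% of all genes. All knockouts lay above all controls for 15 of 19 sterol and 8 of 14 fatty acid genes, against 16.4% of all genes.

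Dhcr7, Mvd and Fdps had the largest sterol effects. Dhcr7 had 34.5, 36.1, 31.6 and 32.1 TPM in knockout lungs, against 12.1, 9.69, 13.2 and 13.4 TPM in control lungs, with a wide gap between genotypes, and its effect was 1.41 (SE 0.10, adjusted p = 1.73e-06). Mvd had 27.1, 33.4, 28.8 and 29.03 TPM in knockout lungs, against 13.3, 10.4, 11.9 and 11.7 TPM in control lungs, and its effect was 1.25 (SE 0.092, adjusted p = 2.23e-06). Fdps had 119, 149, 129 and 138 TPM in knockout lungs, against 72.2, 59.9, 73.8 and 66.9 TPM in control lungs, and its effect was 0.96 (SE 0.084, adjusted p = 7.59e-06). None of these 3 genes overlapped between genotypes at 6 months, and all 3 had risen at 6 days.

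The demethylation steps of lanosterol followed. Msmo1 had 94.03, 96.04, 75.9 and 84.2 TPM in knockout lungs, against 49.5, 44.6, 50.2 and 45.2 TPM in control lungs, with an effect of 0.87 (SE 0.08, adjusted p = 1.21e-05). Cyp51 had 32.4, 34.3, 30.7 and 32.9 TPM in knockout lungs, against 18.5, 18.1, 17.6 and 17.8 TPM in control lungs, with little spread within each genotype and an effect of 0.82 (SE 0.064, adjusted p = 3.18e-06). Nsdhl, which removes the carboxylated methyl group, had 26.03, 22.8, 22.2 and 25.5 TPM in knockout lungs, against 18.6, 16.99, 18.7 and 18.3 TPM in control lungs, with an effect of 0.39 (SE 0.076, adjusted p = 0.00256). Knockout and control lungs did not overlap for any of them. Hsd17b7, the ketosteroid reductase of the same cycle, had 8.23, 7.28, 6.95 and 6.95 TPM in knockout lungs, against 6.10, 5.63, 5.82 and 5.73 TPM in control lungs, with an effect of 0.29 (SE 0.093, adjusted p = 0.0362), and its call was lost in 7 of the 8 fits that left out 1 lung (adjusted p of 0.0525 to 0.102).

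Sqle, Fdft1 and Hmgcs1, which act before lanosterol is formed, rose too. Sqle had 53.95, 49.97, 43.7 and 49.4 TPM in knockout lungs, against 30.2, 26.5, 32.6 and 31.7 TPM in control lungs, with an effect of 0.68 (SE 0.084, adjusted p = 9.92e-05). Fdft1 had 35.6, 39.8, 30.2 and 34.1 TPM in knockout lungs, against 24.4, 20.3, 22.7 and 19.1 TPM in control lungs, with an effect of 0.67 (SE 0.099, adjusted p = 0.000419). Hmgcs1 had 88.3, 87.3, 76.3 and 84.8 TPM in knockout lungs, against 63.3, 57.4, 61.9 and 55.5 TPM in control lungs, with an effect of 0.49 (SE 0.066, adjusted p = 0.000201). Each had all knockouts above all controls. Lss, which closes squalene epoxide to lanosterol, rose by 0.39 (SE 0.10, adjusted p = 0.0151), Idi1 by 0.34 (SE 0.077, adjusted p = 0.0062) and Ebp, the isomerase of the sterol double bond, by 0.28 (SE 0.06, adjusted p = 0.00444).

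Pmvk, which had the largest sterol effect at 6 days, had 58.1, 78.6, 57.9 and 60.9998 TPM in knockout lungs, against 44.4, 44.6, 59.5 and 49.01 TPM in control lungs, with control 3 above knockouts 1 and 3. Its effect was 0.36 (SE 0.12, adjusted p = 0.0348), and the call was lost without control 1, control 2, control 4, knockout 2 or knockout 4 (adjusted p of 0.0539 to 0.0956), with no filter (0.0623) and with quantile normalization (0.0678). Mvk and Sc5d, the desaturase before Dhcr7, did not pass, with effects of -0.055 (SE 0.092, adjusted p = 0.718) and 0.13 (SE 0.095, adjusted p = 0.338). Mvk was the sterol gene with a negative value, while the other 18 were positive.

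Of the regulators, Insig1 rose and Srebf2 did not pass. Insig1 had 75.95, 72.1, 66.5 and 71.4 TPM in knockout lungs, against 63.9, 50.1, 56.2 and 56.6 TPM in control lungs, with an effect of 0.33 (SE 0.076, adjusted p = 0.00625), with no overlap. Srebf2 had 78.9, 68.4, 68.4 and 79.7 TPM in knockout lungs, against 71.5, 66.9, 74.3 and 76.5 TPM in control lungs, overlapping throughout, and an effect of 0.028 (SE 0.071, adjusted p = 0.822), with a 95% interval of -0.13 to 0.18. Stard4 had 23.6, 22.9, 22.2 and 22.9 TPM in knockout lungs, against 19.3, 20.1, 20.1 and 17.2 TPM in control lungs, with an effect of 0.25 (SE 0.072, adjusted p = 0.0238), which was lost without control 4, knockout 1, knockout 2 or knockout 4 (adjusted p of 0.0517 to 0.0627) and with quantile normalization (0.0979). By step, 7 of 8 genes up to squalene epoxide, 7 of 8 from lanosterol on and 2 of 3 regulators and carriers rose.

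All 6 sterol genes that rose at 6 days also rose at 6 months. Over all genes, 447 rose at 6 days, and 350 of the 13875 genes tested at both time points (2.52%) rose at both. Most genes that rose at 6 days thus also rose at 6 months, and the sterol genes were not particular in this. The effects of the 19 sterol genes at the 2 time points had a Spearman correlation of 0.779 across genes. This is a description, since genes are not independent replicates. The 2 time points are times of tamoxifen and not ages of the mice. They used different animals and different control lungs, and booster tamoxifen is named at 6 months only.

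**Figure D3:**
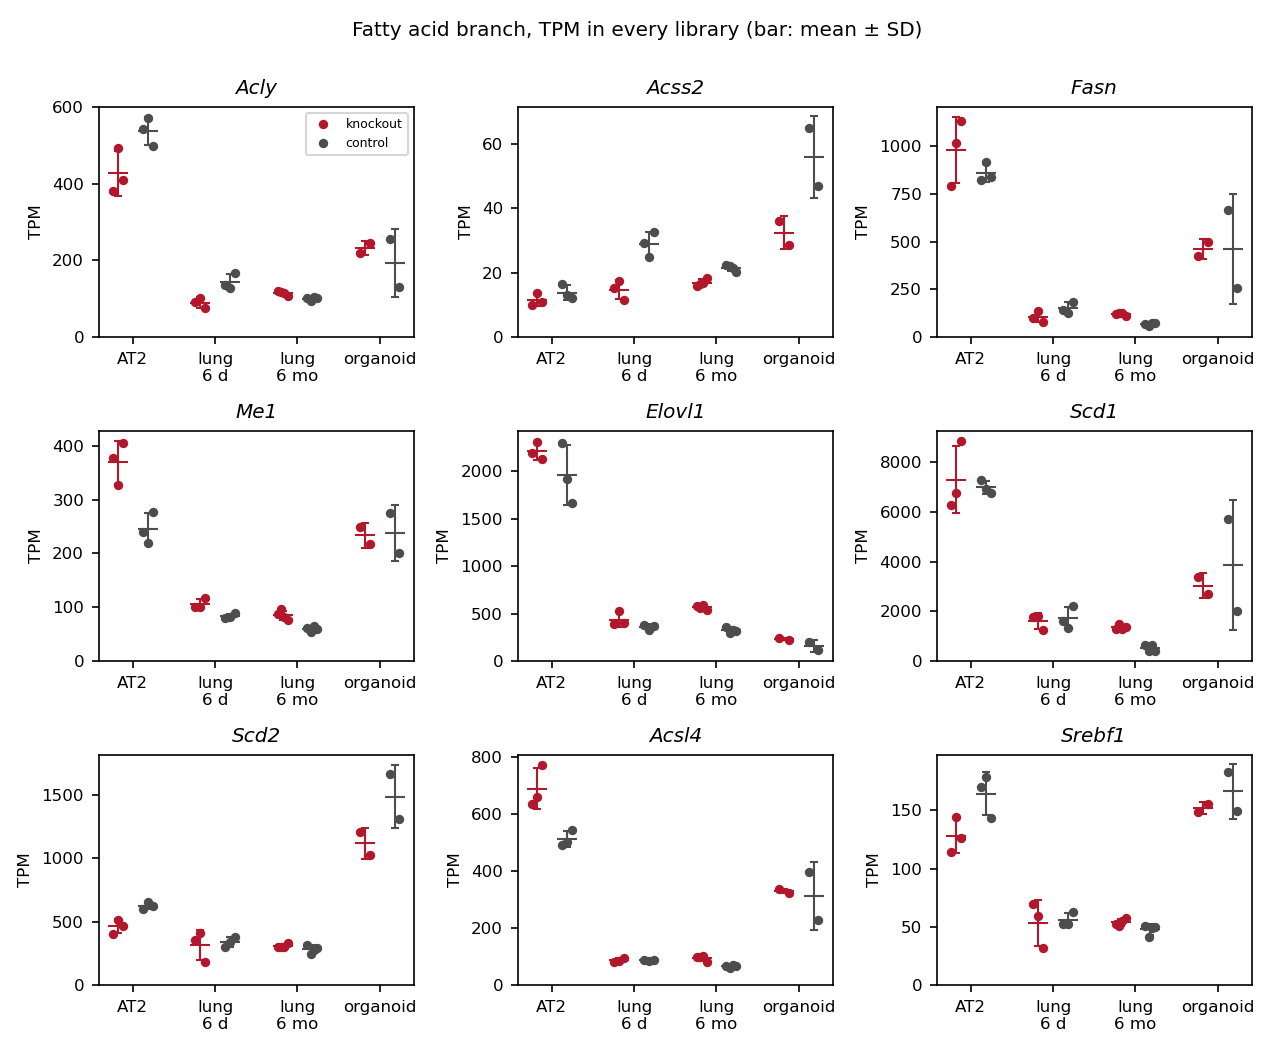
TPM of 9 fatty acid genes in every library, knockout (red) left of control (grey) in each kind of sample, with bars at the mean ± SD. Scd1, Fasn and Elovl1 have all knockout lungs above all control lungs at 6 months. Acss2 has all knockout lungs below all control lungs at both time points. The 2 control organoid libraries lie far apart for Fasn and Scd1.

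Among fatty acid genes at 6 months, the desaturase Scd1 had the largest effect. It had 1301, 1503, 1302 and 1378 TPM in knockout lungs, against 655, 409, 649.9 and 418 TPM in control lungs, with a wide gap between genotypes, and its effect was 1.40 (SE 0.15, adjusted p = 3.89e-05). Controls 1 and 3 lay above controls 2 and 4. Fasn had 122, 126, 128 and 111 TPM in knockout lungs, against 70.9, 59.9, 76.03 and 71.3 TPM in control lungs, and its effect was 0.80 (SE 0.077, adjusted p = 1.69e-05). Elovl1 had 575, 562, 588 and 534 TPM in knockout lungs, against 363, 292, 329 and 313 TPM in control lungs, and its effect was 0.80 (SE 0.066, adjusted p = 4.77e-06). Both genes were separated between genotypes by a wide gap.

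Smaller rises were found in genes that supply or use fatty acids. Acsl4 had 98.05, 99.4, 101 and 81.2 TPM in knockout lungs, against 65.2, 60.5, 69.3 and 65.0003 TPM in control lungs, with an effect of 0.54 (SE 0.076, adjusted p = 3e-04). Me1 had 86.97, 95.9, 81.3 and 76.5 TPM in knockout lungs, against 62.1, 54.8, 66.04 and 58.9 TPM in control lungs, with an effect of 0.49 (SE 0.08, adjusted p = 0.00084). In both genes all knockout lungs lay above all control lungs, with knockout 4 the lowest of the knockouts. Fads1 rose by 0.22 (SE 0.06, adjusted p = 0.0187), which was lost with quantile normalization (adjusted p = 0.0914). Acly rose by 0.19 (SE 0.055, adjusted p = 0.0229), and its call was lost without control 2, knockout 1 or knockout 2 (adjusted p of 0.0604 to 0.0674) and with quantile normalization (0.145).

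Acss2 fell at 6 months as at 6 days. It had 15.8, 16.4, 16.8 and 18.4 TPM in knockout lungs, against 22.3, 21.9, 21.3 and 20.2 TPM in control lungs, with all knockouts below all controls, and an effect of -0.33 (SE 0.074, adjusted p = 0.00582). Acaca, Elovl5, Elovl6, Scd2, Fads2 and Srebf1 did not pass. Elovl5, an elongase of polyunsaturated fatty acids, had all knockouts below all controls, with 163, 174, 164 and 166 TPM in knockout lungs, against 179, 175, 179 and 181 TPM in control lungs, with an effect of -0.10 (SE 0.044, adjusted p = 0.103), and passed as lower with quantile normalization (-0.21, adjusted p = 0.00259). Fads2, the delta-6 desaturase, had 53.1, 48.6, 54.5 and 50.6 TPM in knockout lungs, against 46.4, 39.6, 51.4 and 45.4 TPM in control lungs, with an effect of 0.18 (SE 0.079, adjusted p = 0.116), and it passed as higher with median-ratio scaling (adjusted p = 0.0455) and without control 3 (0.0453). Srebf1 had 52.6, 50.8, 55.2 and 57.5 TPM in knockout lungs, against 50.6, 41.2, 49.4 and 49.9 TPM in control lungs, and its effect was 0.18 (SE 0.076, adjusted p = 0.107).

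Of the members with a let-7 seed match shown above, Srebf2 and Scd2 did not pass in any of the 4 comparisons, and Scd1 passed at 6 months alone. In AT2 cells, where the deletion was aimed, their log2 fold changes were -0.28 for Srebf2, -0.44 for Scd2 and 0.046 for Scd1.

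Marker sums also differed between genotypes at 6 months. AT2 cell markers summed to 41723 to 50648 TPM in knockout lungs and 30613 to 32641 TPM in control lungs, and 8 of 11 rose. Alveolar macrophage markers summed to 4810 to 8376 TPM in knockout lungs and 771 to 1035 TPM in control lungs, and 8 of 10 rose. Fat cell markers summed to 34.3 to 103 TPM in knockout lungs and 88.7 to 211 TPM in control lungs, and 3 of 9 tested fell. Endothelial markers fell in 6 of 6, with a sum of 1361 to 1500 TPM in knockout lungs and 2205 to 2375 TPM in control lungs, and club cell markers fell in 4 of 5, with 97469 to 112020 TPM in knockout lungs and 173880 to 217330 TPM in control lungs. Ciliated cell and heart muscle markers fell in 4 of 5 each, and 4 of 7 monocyte and interstitial macrophage markers rose. AT2 marker sums were thus lower in knockouts at 6 days and higher at 6 months, while macrophage marker sums were higher at both time points. Single markers were mixed at 6 days, when 4 of 11 AT2 cell markers had positive values and 4 of 10 macrophage markers negative ones. The part of these cells in the sterol and fatty acid values was not tested.

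**Figure D4:**
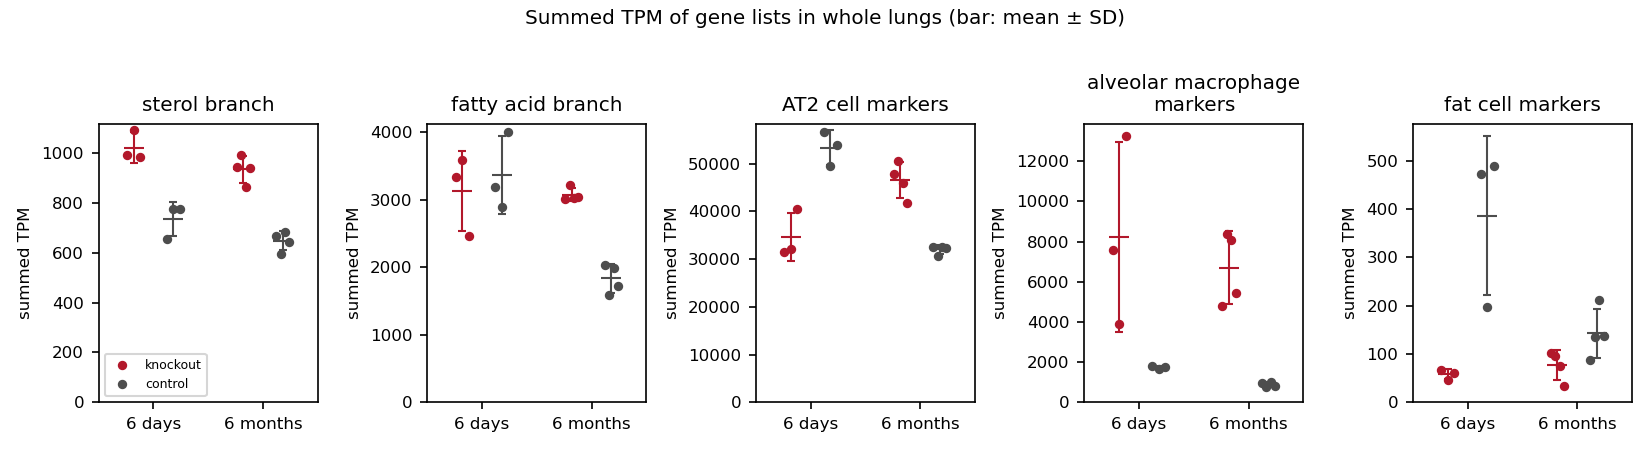
Summed TPM of the 2 branches and of 3 marker lists in each whole lung, knockout (red) left of control (grey) at each time point, with bars at the mean ± SD. The sterol sum was 981 to 1091 TPM in knockout lungs and 655 to 773 TPM in control lungs at 6 days, and 862 to 991 TPM in knockout lungs and 595 to 683 TPM in control lungs at 6 months.

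The summed level of the 14 fatty acid genes was 2466 to 3588 TPM in knockout lungs and 2893 to 4006 TPM in control lungs at 6 days, with overlap. At 6 months it was 3014 to 3219 TPM in knockout lungs and 1593 to 2039 TPM in control lungs, with none. Scd1 alone contributed a mean of 1371 TPM to the knockout sum and 533 TPM to the control sum at 6 months.

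In AT2 organoids, 0 of 19 sterol genes and 0 of 14 fatty acid genes passed the limma test in either direction, with 2 libraries per genotype. Only 0.218% of the 12406 genes tested rose and 0.387% fell. At an unadjusted p under 0.05, 3 sterol and 1 fatty acid genes were higher and 1 of each branch were lower, against 19.7% and 16.8% of all genes. The median effect was 0.108 for the sterol branch and -0.0384 for the fatty acid branch, against 0.0583 over all genes, and the sterol median was -0.0128 with quantile normalization, 0.341 without control 1 and -0.0891 without control 2. The fatty acid median was 0.369 without control 1, -0.302 without control 2 and 0.0149 without knockout 2.

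The organoid sterol genes with the smallest adjusted p lay on both sides. Msmo1 had 149.7 and 141 TPM in knockout organoids, against 217 and 223 TPM in control organoids, and its effect was -0.59 (SE 0.10, adjusted p = 0.0673). Ebp had 60.96 and 57.7 TPM in knockout organoids, against 36.8 and 26.7 TPM in control organoids, and its effect was 0.90 (SE 0.18, adjusted p = 0.0706). Hsd17b7 had 22.3 and 22.5 TPM in knockout organoids, against 15.6 and 13.4 TPM in control organoids, and its effect was 0.60 (SE 0.13, adjusted p = 0.0715). The genotypes did not overlap for these 3 genes. For all genes tested, 39.6% had both knockouts above both controls and 32% had both below, against 5 and 3 of 19 sterol genes and 2 and 4 of 14 fatty acid genes.

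The 2 control organoid libraries lay far apart for the most abundant fatty acid genes. Fasn had 423 and 498 TPM in knockout organoids, against 667 and 259 TPM in control organoids, so that the controls enclosed the knockouts. Scd1 did the same, with 3394 and 2688 TPM in knockout organoids, against 5711 and 2009.9 TPM in control organoids. Without control 1 the Scd1 value was 0.59 with an adjusted p of 0.0408, and without control 2 the Fasn value was -0.54 with an adjusted p of 0.0438, each opposite in sign to the value from all 4 libraries. Without control 1, 9 sterol and 7 fatty acid genes rose and 1 sterol and 2 fatty acid genes fell, while without control 2, 2 sterol genes rose, 1 sterol gene fell and 4 fatty acid genes fell. Over all genes, 3739 of 12897 tested rose and 3228 fell without control 1, and 1475 of 12589 rose and 1696 fell without control 2. In these fits the lone control is assumed to vary like the knockouts. With control 1 left out, the effects were -0.61 for Msmo1, 1.12 for Ebp, 0.70 for Hsd17b7 and -0.53 for Acss2. With control 2 left out, they were -0.57, 0.67, 0.50 and -0.99 in the same order. Both fits use the same 2 knockouts, so they are not independent. The share of all genes that kept their sign in both was not counted. AT2 cell marker sums, given above, were higher in both knockout organoids than in both controls, with 0 of 11 past the test, and their part was not tested. Acss2 had 35.9 and 28.7 TPM in knockout organoids, against 64.7 and 46.9 TPM in control organoids. It was lower in both knockouts, as in the lungs at both time points, and did not pass here (effect -0.76, SE 0.21, adjusted p = 0.0912).

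Differences between the knockout effects were tested directly over the genes measured in both kinds of sample. Between 6 months and 6 days in lungs, 3 of 14 fatty acid effects were higher at 6 months and 1 of 19 sterol effects was lower, against 2.38% and 0.353% of 13875 genes. The effect on Scd1 was 1.40 at 6 months and -0.088 at 6 days, a difference of 1.48 (SE 0.27, adjusted p = 0.00651). The effect on Fasn was 0.80 at 6 months and -0.53 at 6 days, a difference of 1.34 (SE 0.24, adjusted p = 0.0172). For Acly the effects were 0.19 and -0.68 at the same time points, a difference of 0.87 (SE 0.18, adjusted p = 0.0363). All 14 fatty acid genes had a higher value at 6 months than at 6 days, as did 70.2% of all genes, and 11 did not pass.

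Pmvk went the other way, with an effect of 0.36 at 6 months and 1.22 at 6 days and a difference of -0.85 (SE 0.19, adjusted p = 0.0266). Control lungs themselves differed between the time points, in tables that were normalized separately. Scd1 had a mean of 533 TPM in control lungs at 6 months and 1718 TPM at 6 days. Fasn had 69.5 TPM at 6 months and 152 TPM at 6 days, whereas Pmvk had 49.4 TPM and 47.1 TPM at these time points.

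Between AT2 cells and lungs at the same 6 days, 3 sterol effects were lower in AT2 cells, where 0.357% of 11766 genes had a lower effect and 0.705% a higher one. Mvd had an effect of -0.10 in AT2 cells and 1.04 in lungs, a difference of -1.15 (SE 0.22, adjusted p = 0.0258). The Fdps effect was -0.27 in AT2 cells and 0.76 in lungs, a difference of -1.02 (SE 0.21, adjusted p = 0.033), and that of Dhcr7 was -0.29 in AT2 cells and 0.79 in lungs, a difference of -1.08 (SE 0.22, adjusted p = 0.0348). Values were lower in AT2 cells for 18 of 19 sterol genes, against 27.7% of all genes, and Pmvk, with a difference of -1.17 (SE 0.31, adjusted p = 0.104), did not pass. Of 13 fatty acid effects 0 passed this limma-based test, and 5 were higher and 0 lower in AT2 cells at an unadjusted p under 0.05, against 13.3% and 3.35% of all genes. Between organoids and AT2 cells, the effect on Hsd17b7 was 0.60 in organoids and -0.046 in AT2 cells, a difference of 0.64 (SE 0.17, adjusted p = 0.0447), where 3.22% of 11351 genes had a higher effect and 6.08% a lower one. With the smaller of the 2 degrees of freedom, a stricter test added after the data were seen, none of these 8 differences passed (adjusted p of 0.0518 to 0.182). That test left 0 differences over all genes between AT2 cells and lungs or between organoids and AT2 cells. Between the lung time points it left 101 of 379.

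Single libraries also decided these differences. Between the time points, the sterol count of 1 was 0 without knockout 2, control 1 or control 2 of the lungs at 6 days. The fatty acid count of 3 was 1 without control 1 or control 3 of those lungs. Between AT2 cells and lungs, the sterol count of 3 was 0 without knockout 2, control 1 or control 3 of the lungs, 1 without control 3 of the AT2 cells, and 5 without knockout 3 of the lungs. Between organoids and AT2 cells, the sterol count of 1 was 10 without control 1 and 3 without control 2 of the organoids, 2 without knockout 2 of the AT2 cells, and 0 without either organoid knockout or without knockout 1 or control 2 of the AT2 cells. The fatty acid count of 0 in that comparison was 5 without either organoid control. All 3 differences compare separately normalized tables through effects within each table, and those of the lungs share the 6-day samples.

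In control mice the members were mostly more abundant in AT2 cells than in whole lung, a comparison of levels between separately normalized tables that was not tested. The ratio of mean TPM in control AT2 cells to control lungs at 6 days had a median of 3.21 for the sterol branch, from 0.552 for Ebp to 5.01 for Insig1, and was above 1 for 18 of 19 genes. For the fatty acid branch the median was 2.93, from 0.049 for Elovl6 to 5.92 for Acsl4, and 11 of 14 were above 1. Ebp, Acss2, Elovl5 and Elovl6 were the members with a lower level in AT2 cells than in lung. Elovl6 had 0.295 TPM in control AT2 cells and 6.02 TPM in control lungs at 6 days. At 6 months, the order of the 14 fatty acid effects followed this ratio with a Spearman correlation of 0.825 across genes, against 0.308 at 6 days, 0.387 for the sterol genes at 6 months and 0.323 for them at 6 days, all given as descriptions.

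Organoid controls kept the sterol genes at levels near those of fresh AT2 cells, with a median ratio of 1.12, from 0.428 for Pmvk to 2.4 for Dhcr7. The fatty acid genes had a median ratio of 0.751 and a wider range. Elovl6 had 27.8 TPM in control organoids and 0.295 TPM in control AT2 cells, a ratio of 94.3, while Elovl1 had 161 TPM in control organoids and 1963 TPM in control AT2 cells, a ratio of 0.0821. These ratios again set separately normalized tables beside each other, and only 2 organoid controls stand behind them.

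Among other enzymes of sterol synthesis, values of 3 that passed in lungs at 6 months are given. Tm7sf2, a sterol reductase, averaged 9.24 ± 1.45 TPM in knockout lungs and 4.58 ± 0.796 TPM in control lungs (SD, n = 4 each), with an effect of 0.88 (SE 0.14, adjusted p = 0.000566). Lbr, the nuclear envelope protein with the same reductase activity, averaged 38.1 ± 1.06 TPM in knockout lungs and 49.04 ± 3.12 TPM in control lungs (SD, n = 4 each) and fell by 0.35. Acat2, the cytosolic thiolase at the pathway's entry, rose by 0.35 and is named after its value was seen.

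Genes of sterol sensing, uptake, storage and export formed the next list. In organoids 0 of 20 passed the limma test, and 1 was higher and 6 were lower at an unadjusted p under 0.05, against 19.7% and 16.8% of all genes. Lipa, the lysosomal acid lipase that frees cholesterol from its esters, was 1 of 19 that rose in AT2 cells, where 6.62% of all genes rose, averaging 8.07 ± 2.05 TPM in knockout AT2 cells and 2.06 ± 0.309 TPM in control AT2 cells (SD, n = 3 each; effect 1.54, SE 0.19, adjusted p = 0.00587). In lungs at 6 days 3 of 21 rose and 1 fell, against 3.16% and 3.79% of all genes. Lipa averaged 201 ± 18.9 TPM in knockout lungs and 81.3 ± 14.3 TPM in control lungs (SD, n = 3 each), and Ch25h, which makes 25-hydroxycholesterol, averaged 72.4 ± 12.9 TPM in knockout lungs and 16.9 ± 9.78 TPM in control lungs (SD, n = 3 each). Npc2, which carries cholesterol out of lysosomes, had an effect of 0.69 (SE 0.13, adjusted p = 0.0223). Cyp27a1, an oxysterol enzyme named after its value was seen, was the gene that fell (-0.81).

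At 6 months 13 of 21 of these genes rose and 1, Vldlr, fell (-0.30, named after its value was seen), against 15.9% and 13.9% of all genes. Lipa averaged 329 ± 39.4 TPM in knockout lungs and 66.4 ± 3.30 TPM in control lungs (SD, n = 4 each), and Ch25h averaged 54.9 ± 8.18 TPM in knockout lungs and 5.12 ± 1.22 TPM in control lungs (SD, n = 4 each). Apoe, a lipoprotein component that macrophages secrete, averaged 2446 ± 334 TPM in knockout lungs and 883 ± 93.9 TPM in control lungs (SD, n = 4 each). Lipa, Ch25h and Apoe are known from macrophages as well as from other cells, and macrophage marker sums were higher in the knockouts of the same 3 comparisons, as given above. The part of these cells was not tested.

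A further list held genes that feed, elongate or activate fatty acids. Of 16 tested in AT2 cells, 1 rose against 6.62% of all genes. This was Mlx, a partner of the carbohydrate-sensing factor ChREBP (effect 0.33, SE 0.079, adjusted p = 0.0449). In lungs at 6 days 2 of 16 fell, against 3.79% of all genes. Thrsp, a lipogenic protein of fat and liver cells, averaged 2.52 ± 1.47 TPM in knockout lungs and 29.96 ± 14.9 TPM in control lungs (SD, n = 3 each), and Acsl1 averaged 23.9 ± 2.69 TPM in knockout lungs and 43.3 ± 3.90 TPM in control lungs (SD, n = 3 each). Thrsp and the fat cell markers were low in the same lungs. At 6 months 5 of 15 rose and 0 fell, against 15.9% and 13.9% of all genes. Among those that rose were Hsd17b12, a reductase of the elongation cycle (effect 0.30, SE 0.055, adjusted p = 0.00156), Slc25a1, the citrate carrier that feeds Acly (effect 0.39, SE 0.077, adjusted p = 0.00252), and Acsl5 (effect 0.23, SE 0.048, adjusted p = 0.00363). In organoids 0 of 15 passed the limma test, and 4 had an unadjusted p under 0.05, all higher, against 19.7% of all genes.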

How the data were processed

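The authors deposited 1 table of TPM values (transcripts per 1000000 in each library) for each of the 4 kinds of sample, and the genome build is GRCm38 per the labels. RNA was extracted with RNeasy columns and made into nonstranded poly(A) TruSeq libraries, per the labels' protocols. No source used here names the aligner, the program that computed TPM or its annotation. TPM sums were 999919.8 to 999972.4 per library, so depth could not be read from the tables, and no counting interval can be given. A TPM value is a share of the library, so a few very abundant transcripts lower all others.

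Each table was fitted on its own in limma 3.58.1 (R 4.3.3), on log2(TPM + 1) with a mean-variance trend and no covariate. Genes with at least 1 TPM in as many libraries as the smaller group were tested, and p-values were adjusted by Benjamini-Hochberg over them, with calls at 0.05. Of 24972 listed symbols, 2 rows with a repeated symbol were left out. Groups came from the genotype and sample type in the labels. Differences between comparisons were taken between the effects of separate tables, for 3 pairs of tables. The 2 variances were added, and the degrees of freedom were computed from both fits by Satterthwaite's formula. The fits and the differences were run on simulated data, with a limit on false calls set for the fits within a table only. Alternatives changed the pseudocount to 0.1, dropped the filter or raised it to 5 TPM, rescaled the tables by median ratios or quantiles, and further used the replicate number as a block or left out each library. The smaller degrees of freedom for differences were added after the data were seen.

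The members, the gene lists and the tests were chosen with earlier results of these data known. All 33 members could be named, and from each other pathway list up to 3 genes with the smallest adjusted p among those that passed in a comparison. From a marker list, up to 3 genes with the highest mean TPM could be named. A gene of the list of other sterol enzymes, and counts over that list, are not reported here. The labels state no link between same-numbered knockout and control samples, so the main fits used no block (the check is given with the alternatives).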

Additional observations from a re-analysis of the deposited data

Results flagged for a closer look

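Of 66 groups of 4 libraries examined for a stray value (each member in each genotype of the lungs at 6 months), 4 had 1 library far from the others, where chance gives about 1 in 20 groups. Each had a gap to its nearest neighbour above Dixon's critical value for 4 samples, as a share of the range of the group. Pmvk was 78.58 TPM in knockout 2 (0.849 of the range), and the Pmvk call at 6 months was lost without that lung (adjusted p = 0.0835). Acsl4 was 81.21 TPM in knockout 4 (0.835), the lowest of the knockout lungs and above all control lungs. Scd2 was 331.9 TPM in knockout 4 (0.886), and Srebf1 was 41.2 TPM in control 2 (0.872), both in genes that did not pass.

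In 8 members the effect of the knockout differed between kinds of sample by a test of the difference itself. Between lungs at 6 months and at 6 days, the log2 differences of the effects were 1.484 for Scd1 (adjusted p = 0.00651), 1.337 for Fasn (0.0172), 0.8671 for Acly (0.0363) and -0.852 for Pmvk (0.0266). Between AT2 cells and lungs at 6 days they were -1.145 for Mvd (0.0258), -1.024 for Fdps (0.033) and -1.082 for Dhcr7 (0.0348). For Hsd17b7 the difference between organoids and AT2 cells was 0.6447 (0.0447). Over all genes, effects differed for 379 of 13875 between the lung time points and for 125 of 11766 between AT2 cells and lungs. Between organoids and AT2 cells they differed for 1055 of 11351 genes, and for 1 of 19 sterol genes. With the smaller degrees of freedom 0 of the 8 passed, and Scd1 and Fasn were nearest to the threshold (adjusted p = 0.0518 for both).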

How the results depend on the processing

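Counts of members that passed moved when single libraries were left out. Without 1 library, the sterol count that rose was 0 to 10 in lungs at 6 days, 13 to 16 at 6 months and 0 to 9 in organoids, and the count that fell was 0 to 1 in AT2 cells and 0 to 1 in organoids. The fatty acid count that rose was 0 to 1 in AT2 cells, 6 to 8 at 6 months and 0 to 7 in organoids, and the count that fell was 0 to 3, 0 to 2, 1 to 1 and 0 to 4 in AT2 cells, lungs at 6 days, lungs at 6 months and organoids. Over all genes, 181 to 929 rose and 6 to 285 fell in AT2 cells, 41 to 1032 rose and 51 to 1017 fell at 6 days, 1860 to 2295 rose and 1555 to 1886 fell at 6 months, and 0 to 3739 rose and 0 to 3228 fell in organoids. Between the lung time points, differing effects numbered 0 to 1 in the sterol and 1 to 4 in the fatty acid branch. Between AT2 cells and lungs they numbered 0 to 5 and 0 to 0, and between organoids and AT2 cells 0 to 10 and 0 to 5. In organoids the Fasn value was -0.5367 without control 2 and 0.8267 without control 1, and the Scd1 value was 0.5873 without control 1 and -0.9189 without control 2, so that each turned with the control left out.

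With no filter on low values, 0 fatty acid genes and 340 genes in all rose and 30 fell in AT2 cells, and 0 rose and 0 fell in organoids. With a filter at 5 TPM, 2 fatty acid genes rose and 1 fell in AT2 cells, and 323 genes in all fell at 6 days. With median-ratio scaling, 0 fatty acid genes rose, 1 fell and 441 genes in all rose in AT2 cells, and 2 fatty acid genes fell, 899 genes rose and 883 fell at 6 days. Sterol effects that differed then numbered 5 between AT2 cells and lungs and 2 between organoids and AT2 cells. With quantile normalization, 399 genes rose in AT2 cells, 4 fatty acid genes fell, 913 genes rose and 973 fell at 6 days, 2 fatty acid genes fell at 6 months, and 25 genes fell in organoids. Differing sterol effects then numbered 6 between AT2 cells and lungs and 2 between organoids and AT2 cells. Higher genes were 84.4% of calls in AT2 cells (67.6% with median-ratio scaling, 65.1% with quantile), 53.5% at 6 months (42.5% with quantile) and 36% in organoids (46.8% with quantile). With 1 spread shared by both tables, 5 fatty acid effects differed between the time points and 3 sterol effects between organoids and AT2 cells. With the smaller degrees of freedom these counts were 0 for both branches between the time points. They were 0 for the sterol branch in the other 2 differences.

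Deviations of same-numbered samples correlated at -0.173, 0.0764 and 0.172 in AT2 cells, at -0.154, 0.00534 and -0.138 in lungs at 6 days, at 0.0803, 0.11, 0.217 and 0.0928 at 6 months, and at -0.0737 in organoids. At 6 months every sample correlated best with its own number, a hint from the data and not from the design. With the replicate block, 4 sterol genes rose at 6 days, and Hsd17b7 missed the threshold at 6 months (adjusted p = 0.053). In that fit 0 fatty acid genes and 344 genes in all fell at 6 days, and 122 genes rose and 277 fell in organoids. With this block 0 sterol effects differed between the time points or between organoids and AT2 cells. The cause of these shifts was not tested. Without counts, the depth behind a low TPM value is unknown.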

Other observations

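Genes that build phospholipids and triglycerides from fatty acids, formed a list apart from the members. At 6 months 6 of 13 rose and 0 fell, against 15.9% and 13.9% of all genes. Plin2, which coats lipid droplets, averaged 463 ± 80.4 TPM in knockout lungs and 102 ± 3.19 TPM in control lungs (SD, n = 4 each), an effect of 2.16 (SE 0.11, adjusted p = 1.09e-07) by limma. Lpcat1, the acyltransferase that makes the saturated phosphatidylcholine of surfactant, averaged 262 ± 25.04 TPM in knockout lungs and 175 ± 16.4 TPM in control lungs (SD, n = 4 each), and Dgat1, a triglyceride synthase, averaged 20.4 ± 2.58 TPM in knockout lungs and 14.4 ± 1.15 TPM in control lungs (SD, n = 4 each). At 6 days 1 of 13 rose and 2 fell, against 3.16% and 3.79% of all genes. Plin2 averaged 243 ± 44.9 TPM in knockout lungs and 139 ± 26.9 TPM in control lungs (SD, n = 3 each), while Dgat2, the other triglyceride synthase, averaged 6.99 ± 0.936 TPM in knockout lungs and 19.9 ± 5.33 TPM in control lungs (SD, n = 3 each) in lungs whose fat cell markers were also low. The third gene that passed, Chpt1, had an effect of -0.53. In AT2 cells 0 of 12 passed the limma test, with 2 higher and 2 lower at an unadjusted p under 0.05, against 20.5% and 6.75% of all genes. In organoids Lpin1, a phosphatidate phosphatase, was 1 of 13 and fell (-1.84), against 0.387% of all genes.

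Genes of fatty acid oxidation were a further list. In AT2 cells 3 of 20 rose, namely Etfa, Hadh and Acadl, and 17 of 20 had positive values (median 0.254), against 6.62% that rose, 63.5% that were positive and a median of 0.0801 over all genes. In lungs at 6 days 1 of 20, Acadm, fell (-0.58), against 3.79% of all genes, and 4 of 20 values were positive (median -0.183), against 35.8% and a median of -0.139 over all genes. At 6 months 2 rose and 4 fell of 20, against 15.9% and 13.9% of all genes. Ppara and Ppargc1a, which encode regulators of oxidation, fell by 0.41 and 0.51, whereas Acads, a dehydrogenase of short chains, rose by 0.39. In organoids 0 of 20 passed the limma test, with 9 higher and 1 lower at an unadjusted p under 0.05, against 19.7% and 16.8% of all genes.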
